A study of Arabidopsis thaliana with 2 samples.

Results

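The 56 nuclear protein-coding genes of Arabidopsis thaliana that carry a heat shock name were examined for peaks of IBH1, a helix-loop-helix protein that is thought not to bind DNA by itself and that restrains cell elongation in brassinosteroid signalling. They were taken from the 27444 nuclear protein-coding genes of a RefSeq gene table by name alone: the symbol or a synonym begins with HSP, HSC70, HSFA, HSFB, HSFC or BIP. After this prefix, in any letter case, came a digit, a hyphen, a dot or nothing. Of the 56 genes, 40 matched by their main symbol and 16 by a synonym only. The names gave 34 heat shock protein (HSP) genes, 20 heat shock transcription factor (HSF) genes and 2 genes of another function. The latter were NPH4 (AT5G20730), an auxin response factor with the alias BIP, and HIP1 (AT4G22670), a partner of HSP70. Family members that the table lists under other names were not included.

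Chromatin immunoprecipitation and sequencing (ChIP-seq) were done on whole seedlings of ecotype Col-0, harvested at 10 days after growth at 22 °C with 16 h of light and no treatment, so no heat stress was applied. One library came from p35S::IBH1-GFP plants (IBH1OE), in which the fusion is driven by a viral promoter active in most tissues, and the other from p35S::GFP plants, which the library protocol calls Col-0. The title of the first sample reads IBL1, whereas its line and the series' design read IBH1. Each library was made from the pooled DNA of 3 ChIP experiments. There was thus 1 library a group and no spread between replicates, and no test between groups could be made.

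The deposited data are a single list of 2945 peaks, 2944 of them on the nuclear chromosomes, with a summit for each. The list names no sample and was read as the IBH1-GFP peaks. The score of a peak comes from its caller, MACS, whose usual score is 10 times a −log10 p-value. The height of a summit counts the fragments stacked there. Score and height were set by the authors and serve here only to rank peaks within the list. The lowest score was 50.01, weaker peaks are not listed, and the depth of the libraries is unknown. A gene is called bound below when its bounds, widened by 1000 bp on each side, held a summit. This is a statement of position. The gene table has no strand, so starts and ends of genes are not distinguished. All coordinates are of the authors' build, TAIR9.

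Heat shock proteins are molecular chaperones. HSP70 and HSP90 fold and hold client proteins with energy from ATP, HSP100 proteins unfold or disaggregate them, HSP60 proteins form closed folding chambers, and small HSPs keep unfolding proteins soluble. Their genes are switched on by HSFs, which bind heat shock elements in promoters. Class A factors activate transcription, whereas class B factors lack the activating domain and mostly repress. Many chaperones also work without stress in the cytosol, chloroplast, mitochondrion and endoplasmic reticulum.

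Of the 56 heat shock genes, 12 were bound, or 21.4% (exact 95% binomial interval 11.6% to 34.4%, counting error only). Among all nuclear protein-coding genes 3499 were bound, or 12.7%, a share that lies inside that interval. The 12 genes each had 1 summit, and no summit was shared between members. They were CR88, AT-HSFB2B, HSF4, CLPC1, HSP17.4, MTHSC70-2, Hsp70b, NPH4, HSFC1, HSC70-1, HSP1 and HSFA1D in the order of their scores. Without NPH4 and HIP1 the count was 11 of 54 (20.4%). Members matched by their main symbol were bound in 6 of 40 cases, or 15.0%, near the share of all genes. Those matched by a synonym only were bound in 6 of 16 cases (37.5%, exact interval 15.2% to 64.6%), so the count depends on which names are accepted. That interval lies above 12.7%, but many such intervals were computed and it is not a test. The split follows naming only, and NPH4 is among the 6.

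The 44 unbound members were mostly far from any peak. For 40 members the nearest summit was more than 5 kb away, and for 24 it was more than 20 kb away. The median distance over all 56 members was 16200 bp, against 13800 bp over all protein-coding genes. The lower and upper quartiles were 1800 and 32600 bp for members, against 4190 and 34300 bp for all genes. Such distances were thus common for all genes and are not particular to the members. The farthest bound member was HSFC1, at 503 bp. Just outside the limit were AT-HSFA5 at 1370 bp, Hsp70-2 at 1464 bp and HSF1 at 1914 bp.

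**Figure D1:**
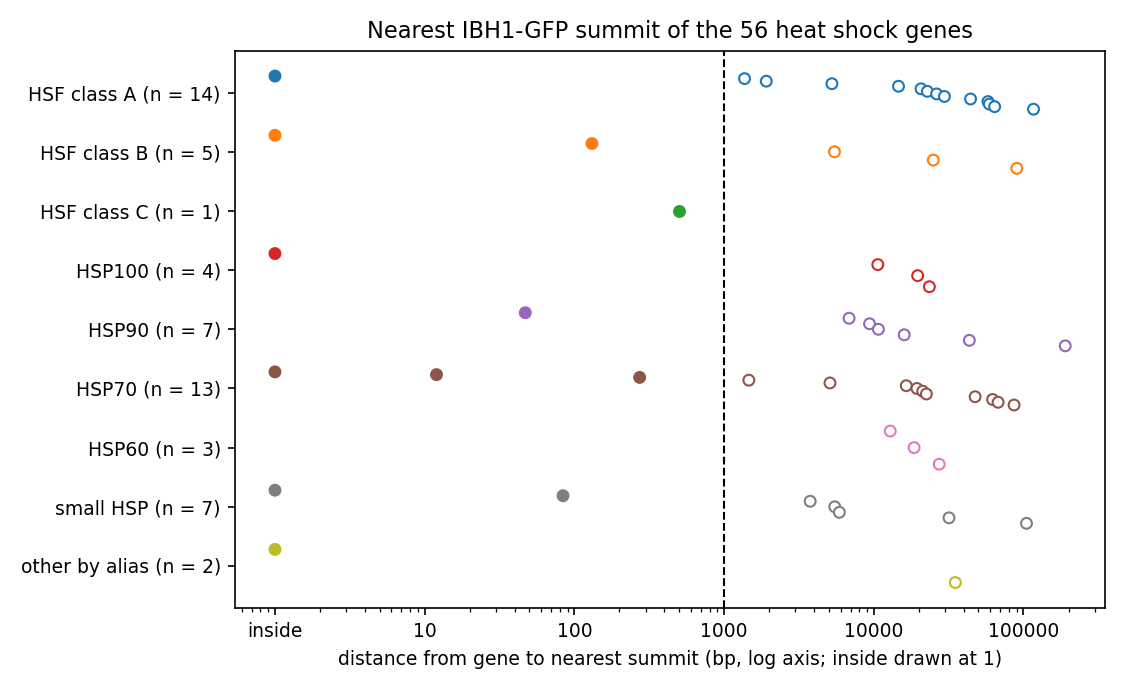
Distance in bp (log axis) from each of the 56 heat shock genes to its nearest summit, by class. Filled points are bound and open points unbound, the dashed line is the limit of 1000 bp, and summits inside a gene are drawn at 1. The 12 bound genes lie at 503 bp or less and no member lies between 503 and 1370 bp.

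Among the HSF genes 4 of 20 were bound (20%). In class A, the activators, 1 of 14 was bound, or 7.14% beside 12.7% of all genes. In class B it was 2 of 5, and the single class C gene was bound. With so few genes a class no order of these shares can be read: the exact intervals ran from 0.181% to 33.9% for class A and from 5.27% to 85.3% for class B.

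HSFA1D (AT1G32330) was the bound class A gene. It is one of the HSFA1 factors, which start the heat response and are present before stress. Its peak, on chromosome 1 from 11657799 to 11658663, was among the weakest of the list, with a score of 50.95 (rank 2864 of 2944) and 18 fragments at the summit. That summit, at 11658243, lay inside the gene, 1279 bp from the nearer bound. The other HSFA1 genes were not bound. Their nearest summits were 1.91 kb from HSF1 (AT4G17750, the table's name for HSFA1A), 20.7 kb from HSF3 (AT5G16820, HSFA1B) and 64.2 kb from HSFA1E (AT3G02990). HSFA2 (AT2G26150), a strongly heat-induced factor that sustains acquired tolerance, had its nearest summit 22.8 kb away. For HSFA9 (AT5G54070), a seed factor, the distance was 57.9 kb, and for HSFA3 (AT5G03720), a target of DREB2A, 117 kb.

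Both bound class B genes encode repressors that keep heat-inducible HSF genes down without stress, and their peaks scored far higher than that of HSFA1D. AT-HSFB2B (AT4G11660) had a peak of 1944 bp on chromosome 4 from 7043460 to 7045403. Its score was 135.81 (rank 311) and its height 35. The peak covered 53.0% of the gene, but the summit lay 131 bp outside it and inside the neighbouring AT4G11670, so the nearest gene of this peak is not the HSF gene. HSF4 (AT4G36990, which is HSFB1) held its summit inside, at chromosome 4, 17441551, 600 bp from the nearer bound. The score was 116.21 (rank 494), the height 32, and no other protein-coding gene lay within reach. The related HSFB2A (AT5G62020) was unbound, with its nearest summit 5.46 kb away, as were HSFB4 (AT1G46264) at 25.0 kb and HSFB3 (AT2G41690) at 90.3 kb.

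HSFC1 (AT3G24520), the only class C factor of this species, combined a low score with a tall summit. The score of 58.49 ranked 2234, whereas the height of 47 ranked 236 of 2944. The peak on chromosome 3 from 8942852 to 8943798 overlapped the gene by 23 bp, and its summit was 503 bp away. An annotated long noncoding RNA gene, AT3G24518, lay 504 bp from the summit, and no other protein-coding gene was within 1000 bp.

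Among the HSP genes 7 of 34 were bound (20.6%): 3 of 13 in the HSP70 class, 2 of 7 small HSP genes, 1 of 7 HSP90 genes, 1 of 4 HSP100 genes and 0 of 3 HSP60 genes. Each of these counts is too small to be told from 12.7% by its exact interval.

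The strongest heat shock peak belonged to CR88 (AT2G04030), the HSP90 of the chloroplast (alias HSP90.5). It spanned chromosome 2 from 1281341 to 1282265, scoring 175.53 (rank 140) with 48 fragments at its summit (rank 221). The summit was 47 bp outside the gene on its lower-coordinate side, with no other protein-coding gene within reach. Of all nuclear peaks 4.76% scored as high or higher. The remaining HSP90 genes were not bound. The heat-inducible HSP90.1 (AT5G52640) had its nearest summit at 43.5 kb. The neighbouring cytosolic genes Hsp81.4, HSP81-3 and HSP81-2 (AT5G56000, AT5G56010 and AT5G56030) had the same nearest summit, 6.84, 10.7 and 16.0 kb away. SHD (AT4G24190), the HSP90 of the endoplasmic reticulum, had one at 9.37 kb, and Hsp89.1 (AT3G07770) at 190 kb was the most remote of all members. The cytosolic genes are close copies of each other, and reads that fit several places may have been lost or misplaced. The authors' treatment of such reads was not given in the sources used.

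In the HSP100 class the bound gene was CLPC1 (AT5G50920, alias HSP93-V), an ATPase of the chloroplast stroma that takes part in protein import and feeds the Clp protease. Its summit at chromosome 5, 20717131 lay 1678 bp inside the gene, in a peak that scored 87.6 (rank 979) and was 23 fragments high. HSP101 (AT1G74310), the disaggregase needed for acquired heat tolerance, had its nearest summit 19.6 kb away. HSP93-III (AT3G48870), the paralogue of CLPC1, had one at 23.5 kb, and CLPB4 (AT2G25140) at 10.6 kb.

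The HSP70 class held 3 bound genes, each with a score below the median of the list, 72.8. HSC70-1 (AT5G02500), a cytosolic HSP70 abundant without stress, lay under one of the widest peaks of the list. That peak was 3015 bp wide (rank 11 in width, with 0.374% of peaks as wide or wider), from 553783 to 556797 on chromosome 5. It covered 98.7% of the gene. Its score was 57.6 (rank 2298), its height 37 (rank 560), and its summit 546 bp inside the gene. The tandem copy Hsp70-2 (AT5G02490) ends 917 bp from HSC70-1 and was not overlapped by the peak. As near-copies, the pair may exchange reads, which was not tested.

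Hsp70b (AT1G16030), a heat-inducible cytosolic HSP70, had a summit 12 bp outside the gene, a score of 68.26 and 28 fragments. The same summit was 61 bp from AT1G16040, so it lay between these neighbours, nearer to Hsp70b. MTHSC70-2 (AT5G09590, alias HSC70-5), a mitochondrial HSP70, had a summit 273 bp outside, a score of 71.6 and 36 fragments. That summit lay inside the small nuclear RNA gene U2.5, and AT5G09580 was 387 bp away. Of the 13 HSP70 genes in the list, HSC70-1 was the single one that held a summit within its own bounds.

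The other 10 of the 13 listed HSP70 genes had no summit within reach. The nearest to HSP70 (AT3G12580), a strongly heat-induced cytosolic gene, was 67.7 kb away. For the BIP genes, the HSP70s of the endoplasmic reticulum, the distances were 5.10 kb for BIP2 (AT5G42020), 62.2 kb for BIP1 (AT5G28540) and 86.6 kb for the stress-induced BIP3 (AT1G09080). HSP91 (AT1G79930, alias AtHsp70-14) and Hsp70-15 (AT1G79920) are adjacent on chromosome 1, and the nearest summit was 16.5 and 21.2 kb from them. The mitochondrial HSP60 genes HSP60 (AT3G23990), HSP60-2 (AT2G33210) and HSP60-3A (AT3G13860) had their nearest summits 12.9 to 27.4 kb away.

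Of the small HSP genes, HSP17.4 (AT3G46230), a cytosolic class I gene, and HSP1 (AT4G14830), listed as an HSP20-like protein, were bound. HSP17.4 is 750 bp long, the shortest member, and its peak on chromosome 3 from 16984188 to 16985171 covered 90.7% of it. The summit was 84 bp outside, scoring 74.23 (rank 1418), and 20 fragments high. AT3G46220 and AT3G46240 were also within reach, at 774 and 892 bp, and an annotated long noncoding RNA gene, AT3G07365, at 164 bp. HSP1 held its summit 606 bp from the nearer bound, in one of the weakest peaks (score 51.95, rank 2759, height 23), and AT4G14840 was 165 bp from that summit.

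The adjacent HSP17.6A (AT5G12030) and HSP17.6II (AT5G12020) shared a nearest summit at 3.76 and 5.49 kb that was 64 fragments high. HSP21 (AT4G27670), the small HSP of the chloroplast, had one at 5.89 kb, HSP18.2 (AT5G59720) at 31.8 kb and HSP23.6-MITO (AT4G25200), a mitochondrial form, at 105 kb. NPH4, in the list by its alias alone, held a summit 1694 bp inside the gene. Its peak was 2403 bp wide (rank 38) and scored 64.32, with 23 fragments at the summit. HIP1 had its nearest summit at 35.1 kb.

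**Figure D2:**
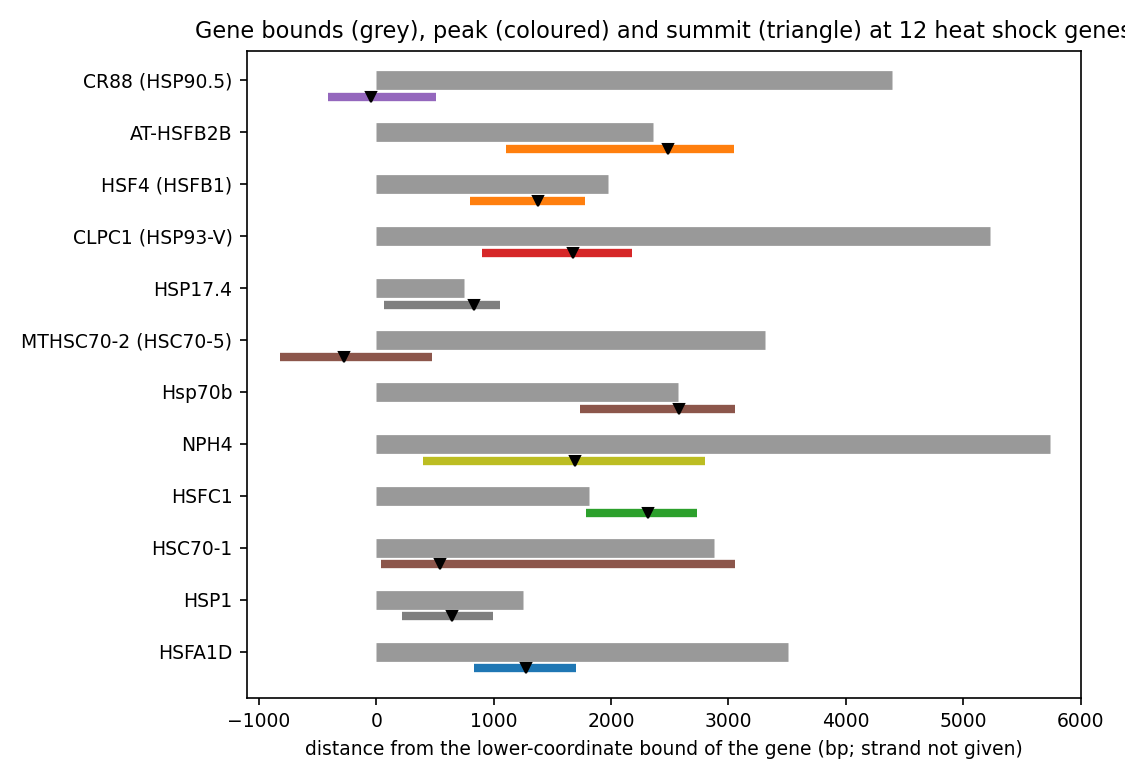
The 12 bound heat shock genes from the highest score (top) to the lowest. Grey bars are the gene bounds drawn from the lower coordinate in bp, coloured bars the peaks and triangles the summits. In 6 genes the summit is inside, and for HSC70-1 the peak covers nearly the whole gene.

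The summit lay inside the gene in 6 of the 12 bound members: HSF4, CLPC1, NPH4, HSC70-1, HSP1 and HSFA1D. Over all bound genes the share was 55.3%. Counted by summits inside alone, 6 of 56 members (10.7%) were bound, beside 7.05% of all genes. These 6 summits were 546 to 1694 bp from the nearer gene bound, each deeper than the median of 342 bp over all 2039 pairs of a summit and a gene that held it. Gene length limits this depth, and lengths were not matched here (median 2660 bp for members, 2080 bp for all genes). Of the 6 summits outside, 5 were within 300 bp of the gene, and HSFC1 was the exception. For 7 of the 12 genes no other protein-coding gene was within reach of the summit. AT-HSFB2B was the only one whose summit was nearer to another protein-coding gene. With each summit given to its nearest gene alone, 11 of these 12 stayed bound (19.6% of members). Of the 3499 bound genes of the whole list 2542 did (9.26% of all genes). For summits within 300 bp, and for other genes within reach, the shares over all bound genes were not computed. Those counts describe the 12 genes and give no trait particular to them.

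In strength the heat shock peaks were ordinary for this list. Their scores ran from 50.95 to 175.53 with a median of 69.9, against 72.8 over all nuclear peaks. Heights ran from 18 to 48 with a median of 30, against 27. A score of 100 or more was reached by 3 of the 12 peaks (25.0%) and by 24.8% of all peaks. These were CR88, AT-HSFB2B and HSF4, so 3 of 56 members (5.36%) were bound at that limit, beside 3.38% of all genes. At or above the median score 5 members were bound (8.93%), beside 6.70% of all genes, with CLPC1 and HSP17.4 added. In width the peaks leaned to the broad side: 10 of 12 were at or above the median of all peaks, 885 bp, and their own median was 1130 bp (range 778 to 3015 bp). Without replicates no test of this difference was made.

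**Figure D3:**
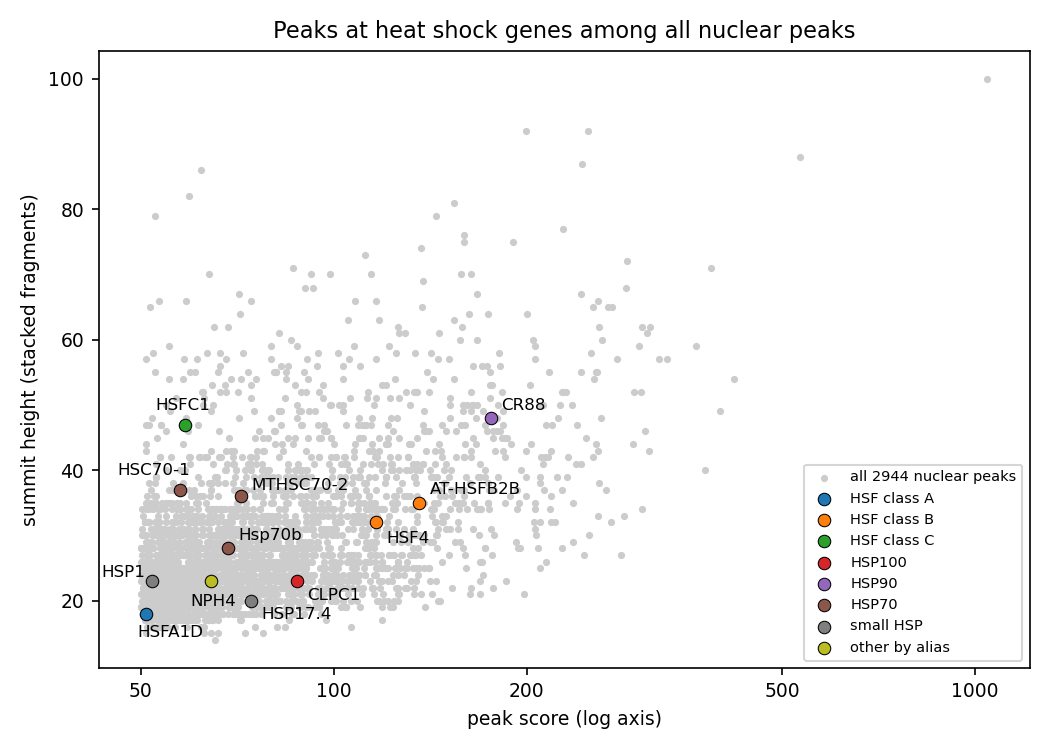
Score (log axis) and summit height in stacked fragments of all 2944 nuclear peaks (grey) and of the 12 peaks at heat shock genes, coloured by class. CR88, AT-HSFB2B and HSF4 exceed a score of 100, while HSFC1 has a tall summit with a low score.

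Gene length and place on the chromosome move with the share of genes bound, and both are given beside the members. Heat shock genes had a median length of 2660 bp, against 2080 bp for all genes, and longer genes were bound more often overall. Within each length range the members' share was above that of all genes: 2 of 9 (22.2%) against 9.08% under 1500 bp, 5 of 25 (20%) against 13.6% from 1500 to under 3000 bp, and 5 of 22 (22.7%) against 15.6% at 3000 bp or more. Each of these shares of all genes lay within the members' exact interval.

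Genes near gene-poor regions were bound more often. Gene-poor windows are here those of 500000 bp with under 60 protein-coding genes, 36 of 240. In or within 2 Mb of such a window 4 of 6 members were bound (66.7%, exact interval 22.3% to 95.7%), and 21.9% of all genes. That interval lies just above 21.9%, but it rests on 6 genes, many such intervals were computed and it is not a test. The 4 bound members were HSFA1D, AT-HSFB2B, CR88 and HSP17.4, while HSFB4 and BIP1 were unbound there. Of all genes, 14.8% were bound inside the gene-poor windows and 23.5% outside them but within 2 Mb. BIP1 was the only member inside such a window. At 2 to 5 Mb 3 of 15 members (20%) were bound against 15.1% of all genes, and beyond 5 Mb 5 of 35 (14.3%) against 8.72%. Leaving out all genes in or within 2 Mb of a gene-poor window left 8 of 50 members bound (16.0%), beside 10.5% of all other genes. By chromosome, 2 of 9 members were bound on chromosome 1 (11.8% of all genes there), 1 of 6 on chromosome 2 (14.2%), 2 of 11 on chromosome 3 (11.5%), 3 of 9 on chromosome 4 (17.3%) and 4 of 21 on chromosome 5 (10.9%). The share was highest on chromosome 4 both among members, at 33.3%, and over all genes.

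**Figure D4:**
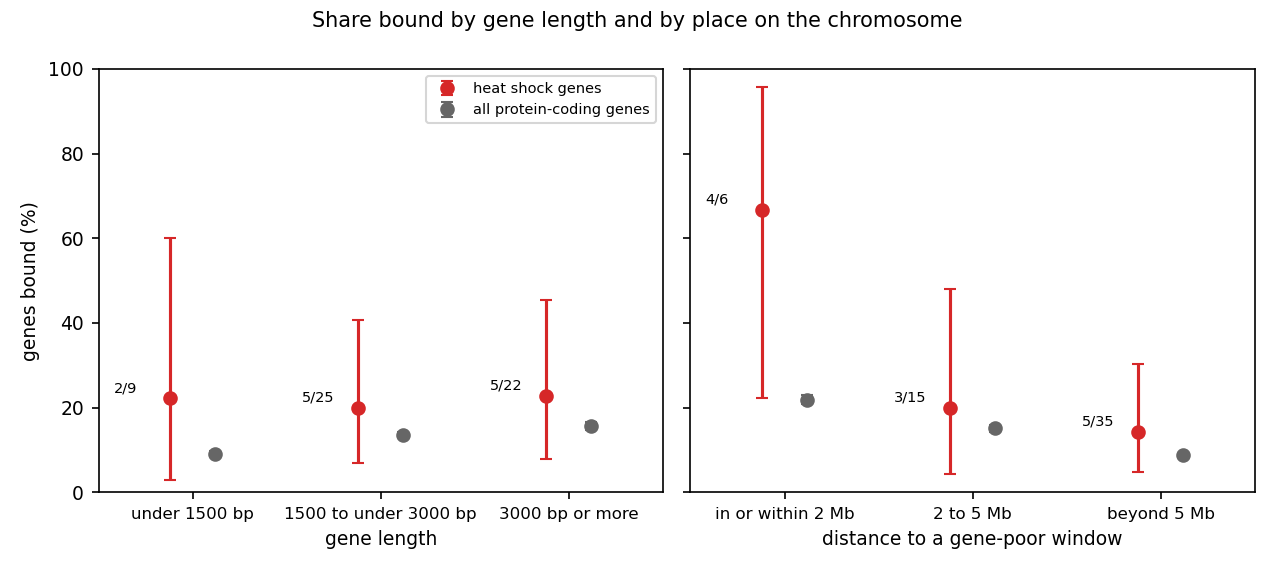
Percentage of genes bound among heat shock genes (red, with counts) and all protein-coding genes (grey), by gene length and by distance to a gene-poor window. Bars are exact 95% binomial intervals for counting error. The members' points lie above those of all genes in each range, from 14.3% to 66.7%, with wide intervals. Only the interval in or within 2 Mb, which rests on 6 genes, leaves out the share of all genes, and it is not a test.

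Genes that work with heat shock proteins or in the same response were examined as 5 lists. Together 15 of their 90 genes were bound (16.7%, exact interval 9.64% to 26.0%), beside 12.7% of all genes. Partner chaperones of HSP70 and HSP90 gave 4 of 19. RAR1 (AT5G51700, listed as PBS2), which joins HSP90 and SGT1 in immune receptor complexes, held a summit with a score of 76.89. BAG3 (AT5G07220), of the family of HSP70 cochaperones, held one scoring 58.77 and had another 780 bp away scoring 57.7. The summit of SGT1A (AT4G23570, score 53.21) was 868 bp away. That of Hop3 (AT4G12400, 88.46), a protein that links HSP70 to HSP90, was 923 bp away and inside PME1 (AT4G12390).

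J-domain proteins, which stimulate the ATPase of HSP70, were bound in 3 of 20 cases. The scores at J3 and J20 were the highest of these lists. J3 (AT3G44110), a cytosolic partner of HSP70, held a summit scoring 144.68 at chromosome 3, 15869173. J20 (AT4G13830), of the chloroplast, held one scoring 133.93 at chromosome 4, 8011035. Both were 39 fragments high, and each score was above those of all heat shock members but CR88 and, for J20, AT-HSFB2B. ATERDJ3A (AT3G08970, also TMS1), of the endoplasmic reticulum, had a summit 103 bp away scoring 81.98, inside AT3G08960. No chaperonin of 5 was bound, but 15 further symbols of that list were not matched and 2 were dropped, so it covers only part of the family. With a reach of 2000 bp, or by peak overlap, 1 of the 5 was bound.

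Among 21 endoplasmic reticulum chaperones and stress sensors 3 were bound (14.3%). The summit of CRT1a (AT1G56340), a calreticulin, was 72 bp away with a score of 90.93. Those of PDIL1-1 (AT1G21750), a protein disulfide isomerase, and BZIP60 (AT1G42990), a factor of the unfolded protein response, were 208 and 255 bp away with scores of 60.83 and 53.99. The summit of PDIL1-1 was nearer to AT1G21740, at 162 bp.

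Of 25 regulators and targets of the heat response 5 were bound (20%). CNGC6 (AT2G23980), a calcium channel of heat sensing, held a summit scoring 89.15. PHYB (AT2G18790), a photoreceptor that also senses temperature, had one 154 bp away scoring 61.98 and 86 fragments high. Summits lay 253 bp from GolS2 (AT1G56600, score 55.62), which makes galactinol, and 300 bp from MBF1C (AT3G24500, 62.2), a heat-induced coactivator. The summit at MBF1C was inside ALDH2C4 (AT3G24503). HSA32 (AT4G21320), needed for lasting heat tolerance, had a summit 674 bp away scoring 51.4 that lay inside AT4G21310.

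**Figure D5:**
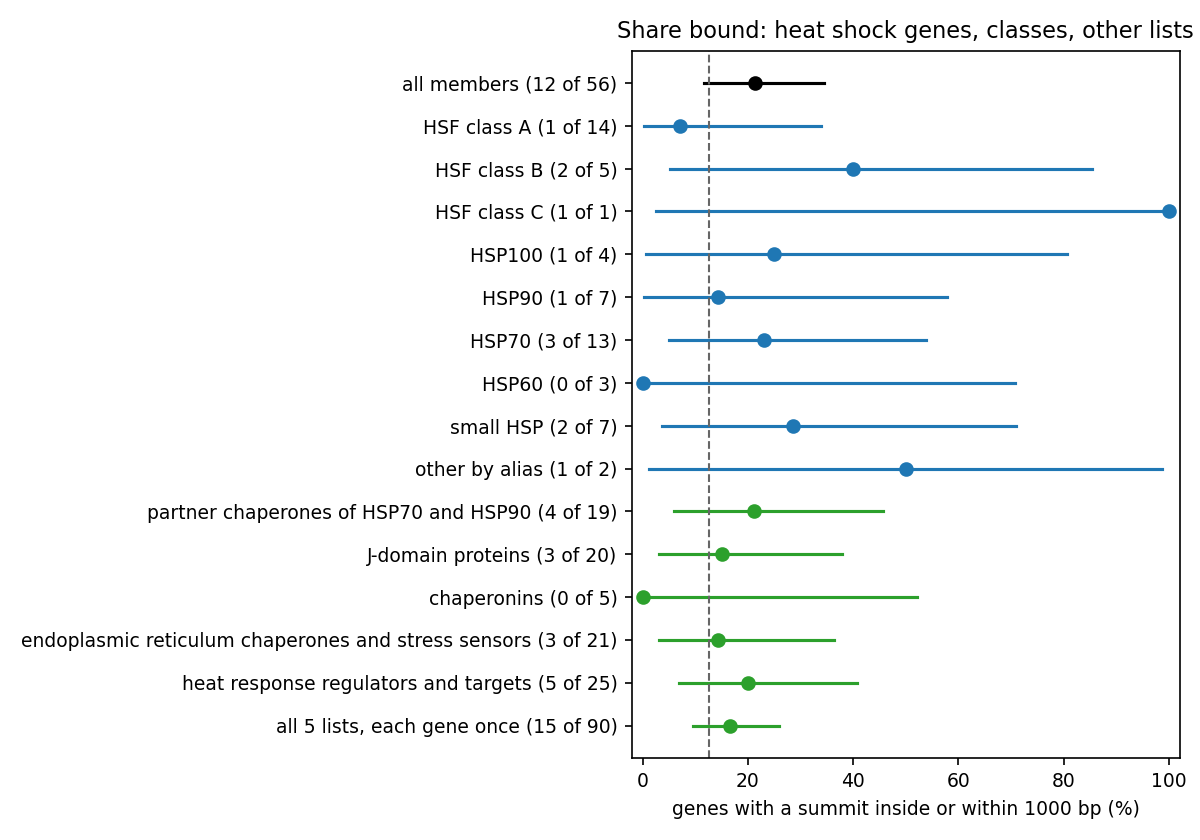
Percentage of genes with a summit inside or within 1000 bp, for all 56 heat shock genes (black), their classes (blue) and the 5 lists of related genes (green), with exact 95% binomial intervals for counting error. The dashed line is the 12.7% of all protein-coding genes, which lies within every interval drawn.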

How the data were processed

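ChIP-seq of 1 IBH1-GFP and 1 GFP library, grouped by line, was analysed from the deposited peak and summit lists. The submitters' processing notes name CASAVA 1.8.2, Bowtie, MACS and the build TAIR9. For settings, depth and the role of the control, the entry is: not given in the sources used here. The deposited peak score is the authors' MACS score, and the deposited summit signal is the authors' stacked fragment height.

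Summits were placed with Python 3.11.15 against the bounds of 27444 genes of the RefSeq table of TAIR10.1. The peak list and the gene table name different builds, so summits were shifted as a check for an offset. Of the summits 67.5% lay inside genes unshifted, and at most 61.7% with shifts of 1000 bp or more. No offset of that size was thus seen. Placement was tested on simulated data. Intervals are exact (Clopper-Pearson, scipy 1.17.1), with no test for want of replicates. Members, classes and lists were chosen with earlier results of these data known. Of 122 list symbols 90 were used. The remainder were unmatched, repeated, or named another gene or a member. Named genes are all bound genes, the 3 members just outside 1000 bp, main members of each class, and nearer neighbours of summits. Further unbound members and U2.5 were named after their values were seen. Promoter motifs were not examined, as no sequence was used here.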

Additional observations from a re-analysis of the deposited data

How the results depend on the processing

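The 12 bound heat shock genes became 3 when peaks had to score 100, 5 when they had to reach the median score and 6 for summits inside genes, where fewer peaks or a narrower reach are counted by construction. With main symbols alone 6 of 40 were bound (15.0%). The 16 members that then drop out include the other 6 bound genes, so the share falls as well as the count. The members' share stayed above that of all genes in each of these, at 1.59, 1.33, 1.52 and 1.18 times. The bound genes of these settings are subsets of the same 12, with 3 to 6 genes each. The ratios are therefore not independent of each other and were not tested. The count was 11 to 15 for reaches of 500 and 2000 bp, peak overlap, midpoints, the nearest gene alone, without genes of another function and with members that share a summit counted once. Chosen after seeing the data were adding 4 genes with a prefix or space in their names (13 of 60 bound) and leaving out genes near gene-poor windows (8 of 50). HSF4 was bound under all 8 settings of score, reach and position. The 8 classes with a bound gene, which include the class of genes of another function with NPH4, became 2 and 4 under these score limits. The number of peaks at heat shock genes, 12, fell to 3 with scores of 100 or more and was 12 with midpoints or peaks merged within 500 bp. For the 5 related lists, 15 bound genes became 2, 7 and 5 under the score limits and for summits inside genes. At scores of 100 or more and inside genes their share was below that of all genes (2.22% and 5.56%). Of 112 values of single classes and lists, 80 stayed within 1.5 times, 29 fell and 3 rose beyond it. The planned search of promoters was left out for lack of sequence. No paired analysis was possible because only 1 library stands in each group. The depth is unknown, so an unlisted gene may still carry IBH1 below the authors' threshold.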

Other observations

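The naming rule missed 4 heat shock genes through a prefix to the name or, for HSF A4A, a space within it. Of these, cpHsc70-1 (AT4G24280), an HSP70 of the chloroplast stroma, held a summit at chromosome 4, 12589815 scoring 50.95, with 25 fragments. The nearest summit was 2.15 kb from HSF A4A (AT4G18880), a class A factor not among the 14 counted, and 330 bp from its neighbour BEH3. It was 3.57 kb from ATHSP22.0 (AT4G10250), a small HSP, and 39.8 kb from mtHsc70-1 (AT4G37910), of the mitochondrion. For their counterparts among the 56 genes, the nearest summit was 47.5 kb from cpHsc70-2 and 273 bp from MTHSC70-2.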
